A study of Bos grunniens and Bos grunniens x Bos taurus with 2 samples.

Results

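The genes of the piRNA pathway and of transposon silencing that were followed through the germ cells of the yak testis are *PIWIL1*, *PIWIL4*, *MAEL*, *TDRD9*, *FKBP6*, *RNF17*, *TEX15*, *SPOCD1* and *MORC1*. They were found by their symbols in the gene table, where each of the 9 names 1 of 26961 genes. piRNAs are short RNAs of the germ line that bind PIWI proteins and guide them to transposon transcripts and transposon loci, so that mobile elements are cut or silenced. In the mouse, the PIWI protein PIWIL4 works in the nucleus of fetal male germ cells, where SPOCD1 and TEX15 are needed for the DNA methylation of young transposons, whereas PIWIL1 loads the abundant piRNAs of pachytene spermatocytes. MAEL, TDRD9, FKBP6 and RNF17 act in the cytoplasmic granules in which piRNAs are made and used, and MORC1 is a nuclear ATPase that represses transposons in male germ cells.

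The series held 1 droplet library of the testis of a yak (*Bos grunniens*) and 1 of the testis of a cattle-yak, the cross *Bos grunniens* x *Bos taurus*, both sampled after sexual maturity. Cattle-yak males are known to be sterile. Both tissues were frozen and thawed before the cells were released, and the labels name germ cells, although most barcodes carried somatic markers.

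The yak library held 11991 cells with a median of 2533 unique molecular identifiers (UMIs) and the cattle-yak library 8930 cells with a median of 3155, and 24 barcodes occurred in both, 1 of them among the germ cells used here. With 1 library per animal there was no replicate check, so every comparison below is between 2 sets of cells or 2 libraries, no p-value is given, and yak and cattle-yak cannot be told apart from animal, library and depth. Levels are summed UMIs of a gene per 1000000 UMIs of the group (CPM), with exact 95% Poisson intervals that cover counting error only.

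The germ cells were taken in 3 ways. First, 1127 yak barcodes carried a type given by the authors, namely spermatogonial stem cell (SSC, 84 cells), spermatogonium (SPG, 486), early spermatocyte (early-SPC, 72), late spermatocyte (late-SPC, 261) and spermatid (SPT, 224). These cells were shallow, with median depths from 906 to 1799.5 UMIs. Second, 409 yak cells lay above the upper depth limits of their library and in clusters with germ cell markers, and they held 13304941 UMIs, more than all typed cells together. They fell into 4 clusters, which are named here by a leading gene: *DMRT1* (203 cells, with spermatogonial and early meiotic genes), *SYCP2* (36 cells) and *CCNA1* (72 cells), both with spermatocyte genes, and *TEX29* (98 cells, with spermatid genes). In the last way, 326 cattle-yak cells formed 1 germ-like cluster, of which 220 were deep. All 9 genes and the pathway list were left out of the clustering.

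The type labels were checked against markers fixed for each cell type. Of the 84 SSC, 74 lay in an endothelial-like cluster led by *BMX* and 0 in a germ-like cluster. Summed endothelial markers reached 2005 CPM in SSC, with 1 of 11 markers at 0, and 3918 CPM in the 263 untyped cells of that cluster. Of the 486 SPG, 322 lay in a shallow unnamed cluster with muscle and matrix genes, and summed muscle cell markers reached 4426 CPM in SPG, against 471 CPM in the deep *DMRT1* cluster. Early-SPC lay in the *DMRT1* cluster (63 of 72), and late-SPC (235 of 261) and most SPT (192 of 224) in the *SYCP2* cluster. The part of these other cells in the levels of SSC and SPG was not tested, and both labels are kept below only as names of cell sets. The deep *DMRT1* cluster had all 12 measured spermatogonial markers above 0, summing to 3433 CPM. In the cattle-yak germ-like cells the same markers summed to 3688 CPM, while 7 of 15 spermatid markers were at 0.

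Among the typed cells, the members differed between the type labels. *PIWIL1* was high in late-SPC, *SPOCD1* in SSC, *FKBP6* in late-SPC and *RNF17* in both spermatocyte types, while *MAEL* and *TEX15* were high in SPT and *PIWIL4* and *MORC1* gave few counts in any type. Each type was set against all other kept yak cells, and a gene was counted when it differed at least 2-fold on log2(CPM + 1) with at least 20 counts in the 2 groups together. *MORC1* missed that minimum with 18 counts, which left 8 members. The types had been drawn by the authors from expression of all genes, so these counts are a description.

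In SSC 6 of 8 members were at least 2-fold higher than in the other cells, where 14.4% of all genes were, and 1 was lower, where 33.9% of all genes were. In SPG 7 of 8 were higher (17.4% of all genes) and 0 lower (16.4%). In early-SPC 4 were higher (21.7%) and 1 lower (46.8%), in late-SPC 6 higher (24.5%) and 1 lower (35.6%), and in SPT 5 higher (25.6%) and 1 lower (34%). The lower calls rested on groups with 0 counts: *PIWIL1* in SSC and SPT, and *PIWIL4* in early-SPC and late-SPC. In those groups 3 counts would have been 6.30 to 19.6 CPM, so that a lower level was not measurable at this depth. SPG was thus the type with the most members at least 2-fold higher than in the other, mainly somatic, kept cells. No type had a lower member that counting could resolve.

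**Figure D1:**
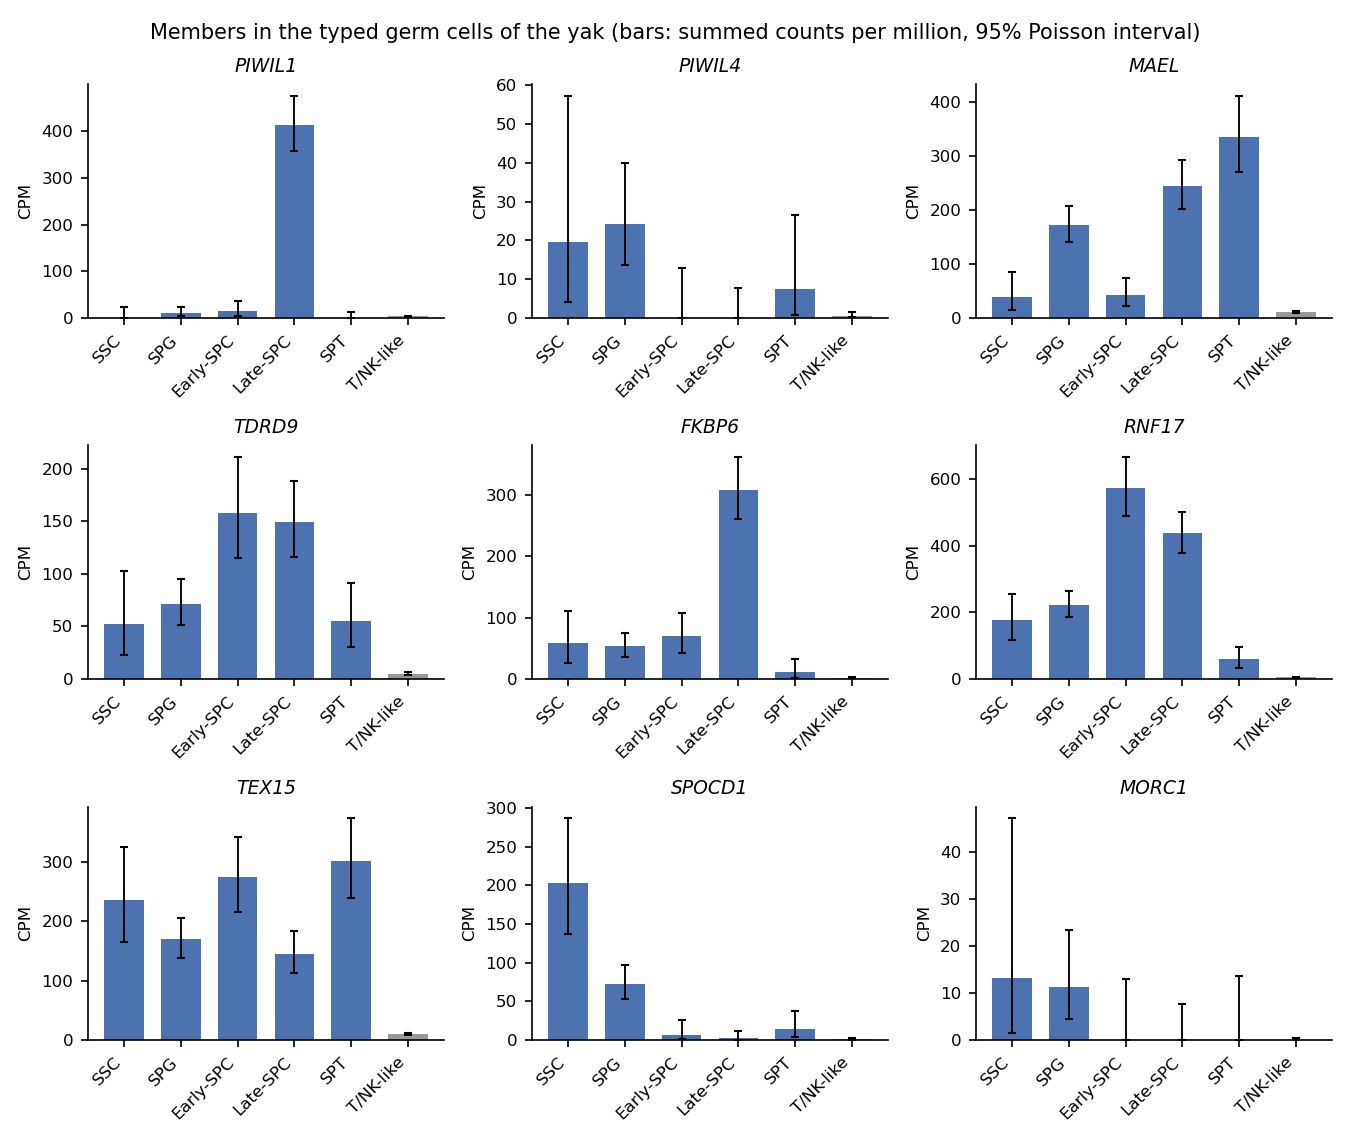
CPM of the 9 members (vertical axes, linear, each with its own scale) in the 5 typed germ cell sets and in T/NK-like cells of the yak library. Bars are summed counts of 1 library and whiskers exact 95% Poisson intervals. *PIWIL1* stands at 414 CPM in late-SPC and at 14.05 CPM or less in the other sets, and *SPOCD1* stands at 203 CPM in SSC and at 2.1 CPM in late-SPC.

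*PIWIL1*, the PIWI protein of meiotic and haploid cells, gave 197 counts in late-SPC. Its level was 414 CPM (interval 358 to 476) there, 14.05 CPM (4 counts) in early-SPC and 11.3 CPM (7 counts) in SPG, and 0 counts were seen in SSC and SPT. Only 1 gene of 14810 had a higher log2 ratio of late-SPC to the other kept cells than *PIWIL1*, whose value was 6.05. With each cell thinned to 1000 UMIs, 16.5% of late-SPC (interval 11.1 to 23.0) had a *PIWIL1* UMI against 0.489% of T/NK-like cells, which serve as the background of free RNA. Without thinning the shares were 20.7% and 0.766%, at median depths of 1168 and 1951 UMIs. With every cell weighted equally the late-SPC level was 250 CPM. The step from late-SPC to early-SPC was larger than the counting intervals, and the order of the other types was not resolved.

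*PIWIL4*, the nuclear PIWI protein, gave 15 counts in SPG (24.2 CPM, interval 13.6 to 40.0), 3 in SSC (19.6 CPM), 2 in SPT (7.36 CPM) and 0 in early-SPC and late-SPC. No pair of neighbouring types in this order differed beyond its counting interval. Within SPG, the 112 cells of the *DMRT1* cluster had 42.2 CPM and the 323 cells of unnamed clusters 14.5 CPM, from 9 and 5 counts.

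*SPOCD1*, a nuclear partner of PIWIL4 in transposon methylation, was highest in SSC (203 CPM, interval 138 to 287). It had 72.7 CPM (53.0 to 97.3) in SPG and 14.7 CPM or less in the other types. In SSC it had a log2 ratio of 5.27 to the other kept cells, and no gene of the 14810 had a higher one. Of the 84 SSC, 23 had a *SPOCD1* UMI. The 74 SSC inside the endothelial-like clusters had 215 CPM, and the 263 untyped cells of the *BMX* cluster had 2.28 CPM, with 4 counts. *RNF17* (179 against 5.71 CPM) and *TEX15* (251 against 8.56 CPM) were set apart in the same way. These 3 members therefore set the cells typed SSC apart from the endothelial-like cells they clustered with, which is a description, since the authors typed the cells by expression. The 10 SSC outside those clusters gave 1 count each of *SPOCD1* and *TEX15*.

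*TEX15*, which is needed for transposon methylation and for meiotic recombination in the mouse, was measured in every type, at 302 CPM in SPT, 274 CPM in early-SPC, 235 CPM in SSC, 170 CPM in SPG and 145 CPM in late-SPC. None of the neighbours in this order differed beyond the counting interval, although SPT (240 to 375) and late-SPC (113 to 183) had intervals that did not overlap. With every cell weighted equally the late-SPC level of *TEX15* was 194 CPM, outside that interval. *MORC1* had 2 counts in SSC and 7 in SPG and was at 0 in the 3 other types.

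*MAEL*, a granule protein of the piRNA pathway, increased in the order SSC (39.2 CPM), early-SPC (42.1), SPG (171), late-SPC (244) and SPT (335 CPM, interval 270 to 411). Each step above early-SPC exceeded its counting interval. With every cell weighted equally, *MAEL* had 129 CPM in SPG and 196 CPM in late-SPC, both outside their counting intervals. *TDRD9*, a helicase with a Tudor domain, had 158 CPM in early-SPC and 149 CPM in late-SPC against 71.1 CPM in SPG, 55.2 CPM in SPT and 52.3 CPM in SSC. The 2 spermatocyte types did not differ beyond counting error, and both lay above the other types. With every cell weighted equally, early-SPC had 100.1 CPM.

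*FKBP6*, a co-chaperone, reached 309 CPM (261 to 363) in late-SPC, between 53.3 and 70.2 CPM in SSC, SPG and early-SPC, and 11.04 CPM (3 counts) in SPT. With every cell weighted equally the late-SPC level was 195 CPM. *RNF17*, a Tudor and RING finger protein of germ cell granules, had 572 CPM (488 to 667) in early-SPC, 437 CPM in late-SPC, 223 CPM in SPG, 176 CPM in SSC and 58.9 CPM in SPT. Its late-SPC level was 347 CPM with every cell weighted equally. In both genes SPT was the lowest type and lay below its neighbour by more than counting error.

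Outside the germ cells the members were low but not all at the same level. In yak T/NK-like cells they ranged from 0 counts (*MORC1*) to 10.7 CPM (*MAEL*). *TEX15* was the exception, with 35.3 CPM (29.8 to 41.6) in muscle cell-like, 40.6 CPM in pericyte-like and 25.8 CPM in stromal-like yak cells against 5.68 CPM in endothelial-like cells. In the cattle-yak it had 18.8, 20.4 and 23.5 CPM in the first 3 and 5.55 CPM in endothelial-like cells. The other 8 members were at 8.28 CPM or less in these 3 yak cell types.

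In the deep cells the counts were higher. *PIWIL4*, *MORC1* and *SPOCD1* belonged to the *DMRT1* cluster, *PIWIL1*, *RNF17* and *FKBP6* peaked in the *SYCP2* cluster, and *MAEL* peaked in the *TEX29* cluster. The mitochondrial share of the UMIs also fell along the clusters, from 13.6% (*DMRT1*) to 4.90% (*SYCP2*), 1.87% (*CCNA1*) and 0.792% (*TEX29*).

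Each cluster was set against the other deep germ-like cells, again as a description, since clusters were drawn from expression. In the *DMRT1* cluster 3 of 9 members were at least 2-fold higher (37.1% of all genes) and 1 lower (30.3%), and in the *SYCP2* cluster 3 were higher (8.9%) and 4 lower (33.9%). In the *CCNA1* cluster 0 were higher (14.3%) and 3 lower (47.9%), and in the *TEX29* cluster 0 were higher (20.5%) and 6 lower (41.6%). The *SYCP2* cluster was the one in which the share of members past 2-fold higher lay furthest above that of all genes, and the *TEX29* cluster the one with the most members past 2-fold lower.

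**Figure D2:**
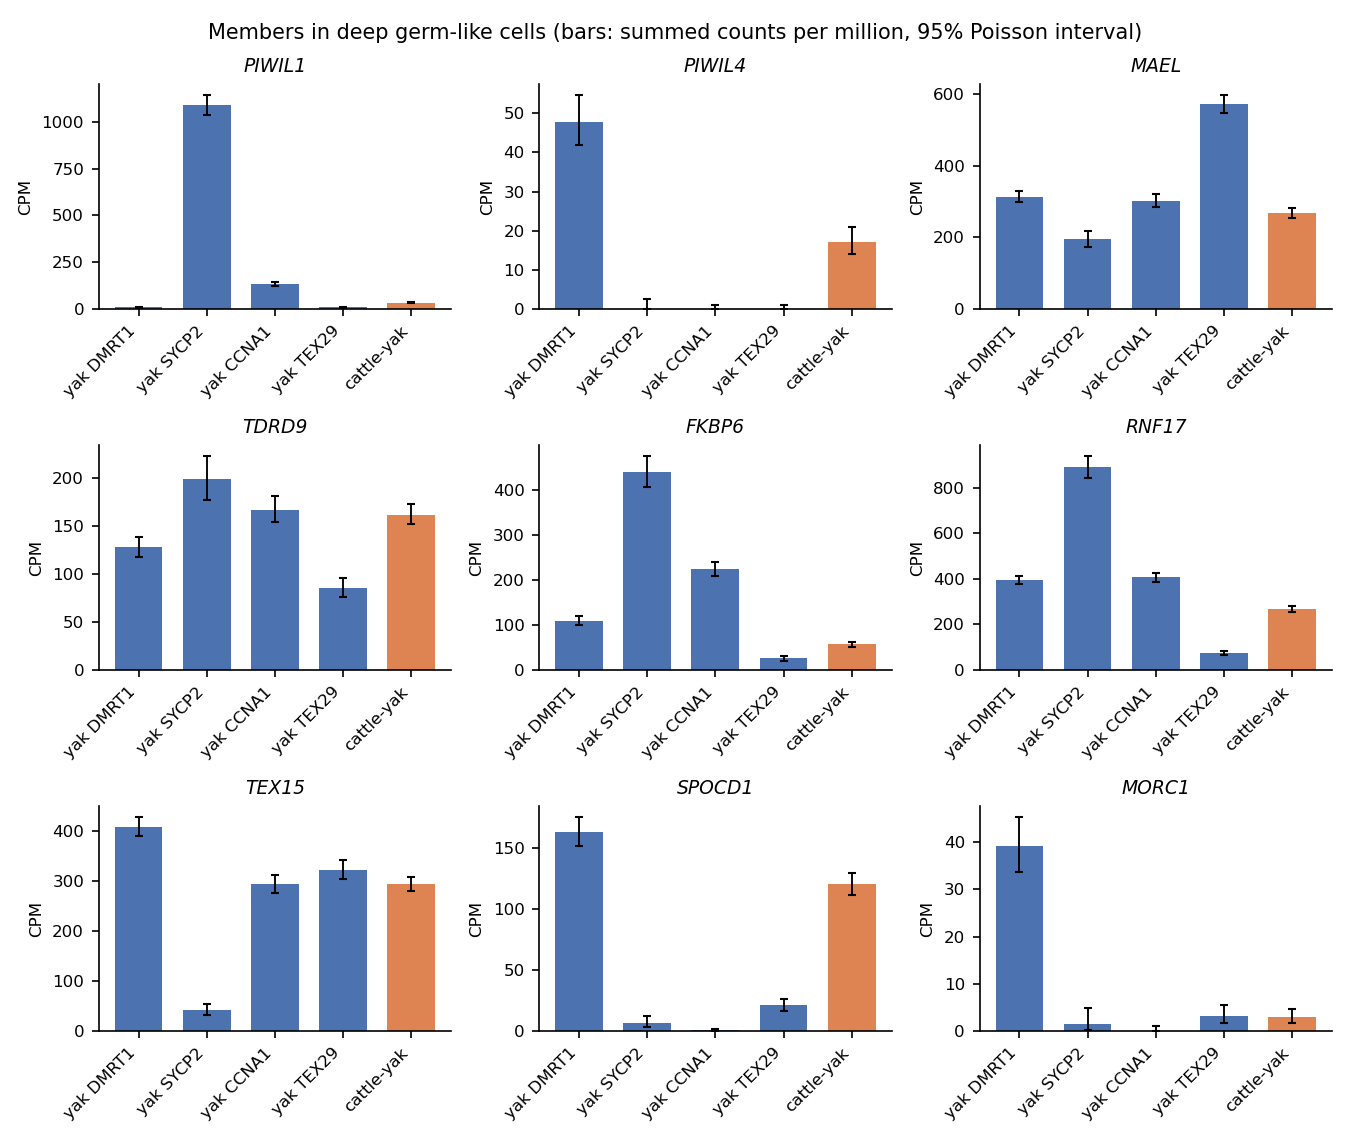
CPM of the 9 members (vertical axes, linear, each with its own scale) in the 4 clusters of deep yak germ-like cells and in deep cattle-yak germ-like cells. Bars are summed counts of 1 library and whiskers exact 95% Poisson intervals. *PIWIL4* has counts in the *DMRT1* cluster (47.9 CPM) and in cattle-yak cells (17.2 CPM) and 0 elsewhere, and *TEX15* dips to 41.6 CPM in the *SYCP2* cluster.

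*PIWIL4* gave 220 counts in the *DMRT1* cluster (47.9 CPM, interval 41.8 to 54.7) and 0 counts in the other 206 deep cells. With the floor of 3 counts put in place of 0 over those cells, it was 139-fold higher in the *DMRT1* cluster, a value that is not an interval limit. *MORC1* had 180 counts there (39.2 CPM) and 13 in the other deep cells, a ratio of 26.3 (15.0 to 50.3). *SPOCD1* had 164 CPM there and 6.61, 0.275 and 21.1 CPM in the *SYCP2*, *CCNA1* and *TEX29* clusters. *SPOCD1* was thus lowest in the spermatocyte clusters and measurable again in the spermatid-like one, where 37 of 98 cells had a UMI.

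*PIWIL1* reached 1091 CPM in the *SYCP2* cluster, 131 CPM in the *CCNA1* cluster, 7.62 CPM in the *DMRT1* cluster and 6.74 CPM in the *TEX29* cluster. Set against the other deep cells, the *SYCP2* cluster had 24.0 times the level (21.8 to 26.5), and 1 of 12745 genes had a higher log2 ratio. *FKBP6* followed the same order, with 439, 223, 109 and 24.99 CPM, and *RNF17* had 891, 406, 395 and 72.7 CPM. For *RNF17* the *CCNA1* and *DMRT1* clusters did not differ beyond counting error. *TDRD9* ranged from 200 CPM in the *SYCP2* cluster to 85.4 CPM in the *TEX29* cluster.

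*TEX15* went the other way. It had 408 CPM in the *DMRT1* cluster, 322 CPM in the *TEX29* cluster and 293 CPM in the *CCNA1* cluster, but 41.6 CPM (32.0 to 53.3) in the *SYCP2* cluster. That was 8.33 times less than in the other deep cells (6.49 to 10.9). The low level holds for the deep cells of this cluster. Late-SPC and SPT, most of which lay in the same cluster, had 145 and 302 CPM of *TEX15*. Of the 36 cells of the *SYCP2* cluster, 33 had a *PIWIL1* UMI and 14 a *TEX15* UMI, and 1 cell gave 27.0% of the 63 *TEX15* counts. With every cell weighted equally the *TEX15* level of the cluster was 71.4 CPM. *MAEL* was also lowest there, at 194 CPM, and rose to 302, 313 and 571 CPM in the *CCNA1*, *DMRT1* and *TEX29* clusters.

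**Figure D3:**
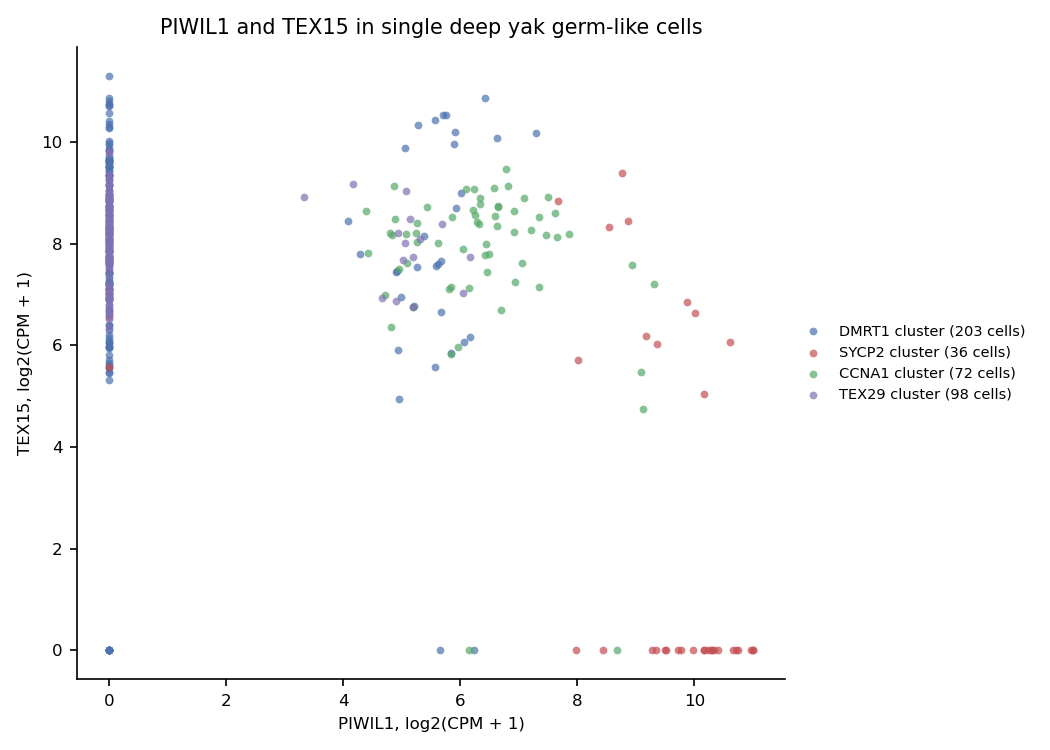
*TEX15* (vertical axis) against *PIWIL1* (horizontal axis), both as log2(CPM + 1), in each of the 409 deep yak germ-like cells, coloured by cluster. Most cells of the *SYCP2* cluster lie at the right with *TEX15* at 0, while most *CCNA1* cells hold both genes and most *DMRT1* and *TEX29* cells lie at *PIWIL1* 0.

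The deep clusters were set beside the typed cells of the nearest stage by label, although 192 of 224 SPT lay in the *SYCP2* cluster. Against SPG and early-SPC, the deep *DMRT1* cluster had 5 of 9 members at least 2-fold higher (15.7% of all genes) and 0 lower (11.3%). They were *MORC1* (39.2 against 7.75 CPM, ratio 5.06, 2.41 to 12.8), *SPOCD1* (ratio 3.14), *PIWIL4* (2.89), *MAEL* (2.40) and *TEX15* (2.01). The deep *SYCP2* and *CCNA1* clusters were pooled and set against late-SPC, and 0 of 6 members were 2-fold higher (9.41%) or lower (13.8%). *PIWIL1* was at 413 and 414 CPM, a ratio of 0.999 (0.863 to 1.16). With every cell weighted equally, the *PIWIL1* log2 ratio of this comparison was 0.60. The pooled *PIWIL1* level mixes 1091 CPM in the *SYCP2* cluster, where 235 of 261 late-SPC lay, with 131 CPM in the *CCNA1* cluster. *TEX15* had 41.6 and 293 CPM in these clusters and 145 CPM in late-SPC. The pooled ratios therefore do not hold for either cluster alone. Between the deep *TEX29* cluster and SPT 2 of 7 members were called higher (16.4%) and 0 lower (14.4%). They were *PIWIL1*, with 24 and 0 counts, and *FKBP6*, with 89 and 3 counts, and both ratio intervals included 1. The *MAEL* ratio was 1.71 (1.38 to 2.13).

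To see how the members varied within these clusters, the deep yak germ-like cells were divided again into 14 sub-clusters and the cattle-yak germ-like cells into 9, a step added after the data had been seen. A sub-cluster is named here by a leading gene. In the *DMRT1* cluster, 34 cells led by *CAMK2B*, *DLK1* and *DUSP26*, together with the members *MORC1*, *PIWIL4* and *SPOCD1*, held the highest levels of the nuclear factors. A rule on leading markers left them without a cell type name, and summed Leydig cell markers, a list that holds *DLK1*, were at 1093 CPM there. Against the other deep germ-like cells, 8 spermatogonial markers and 1 Leydig cell marker were enriched in them, and the spermatogonial list had the most. A further 17 deep cells led by endothelial genes, 11 of them in the *DMRT1* cluster, had 76.5% of their cells among the highest doublet scores.

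In the 34 *DLK1* cells *PIWIL4* had 199 CPM and was seen in 31 cells, from 0 to 501 CPM with a median of 162 CPM. *MORC1* had 209 CPM and was seen in 29 cells, with a median of 130 CPM. *SPOCD1* was seen in all 34 cells, from 57.2 to 1118 CPM, and summed to 594 CPM. *TEX15* was also seen in all 34 cells, from 203 to 2529 CPM, and summed to 1143 CPM. These 34 of the 203 *DMRT1* cells gave 127 of its 220 *PIWIL4* counts, 134 of its 180 *MORC1* counts, 380 of its 751 *SPOCD1* counts and 731 of its 1874 *TEX15* counts. In coarser sub-clusters, at a Leiden resolution of 0.5, the highest levels were 84.1 CPM for *PIWIL4*, 73.7 CPM for *MORC1*, 254 CPM for *SPOCD1* and 595 CPM for *TEX15*.

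The levels of these 4 genes were lower in the other sub-clusters of spermatogonial and early meiotic cells. In the 45 cells led by *RET*, a receptor of spermatogonia, *PIWIL4* had 49.6 CPM, *MORC1* 27.0 CPM, *SPOCD1* 159 CPM and *TEX15* 487 CPM. In the 58 cells led by *TCF19* with the replication gene *MCM3* they had 12.3, 1.45, 77.6 and 155 CPM. In the 40 cells led by *SYCP3* and *REC8*, genes of the meiotic chromosome axis, *PIWIL4* was at 0, *MORC1* had 1 count, and *SPOCD1* had 33.1 CPM. The 4 genes thus stood in the same order, *DLK1*, *RET*, *TCF19* and *SYCP3* cells, except that *TEX15* was higher in *SYCP3* cells (250 CPM) than in *TCF19* cells, and that 1 and 2 counts of *MORC1* give no order of the last pair.

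The cytoplasmic factors shared that order in part. *RNF17* had 522, 384 and 308 CPM in the *DLK1*, *RET* and *TCF19* cells and *TDRD9* 164, 118 and 90.6 CPM, and both were higher again in the *SYCP3* cells, at 509 and 186 CPM. *MAEL* lay between 285 and 350 CPM in the *DLK1*, *RET*, *TCF19*, *H1-1* and *SYCP3* cells. *FKBP6* was lowest in the *RET* cells (45.2 CPM) and had 149 to 182 CPM in the *DLK1*, *H1-1* and *SYCP3* cells.

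The *SYCP2* cluster split into 15 cells led by *ATF7IP2* and 14 led by *TOP2B*, beside 6 cells with endothelial genes and 1 other cell. In the *ATF7IP2* cells *PIWIL1* was seen in every cell, from 647 to 2049 CPM, and summed to 1299 CPM, the highest of the 14 sub-clusters. *TEX15* gave 2 counts there, both in 1 cell. In the *TOP2B* cells *PIWIL1* had 1039 CPM and *TEX15* 127 CPM, with 8 of 14 cells holding a *TEX15* UMI. In the 54 *LHX1* cells of the *CCNA1* cluster *PIWIL1* had 150 CPM and *TEX15* 295 CPM. High *PIWIL1* and low *TEX15* therefore met in the same 15 *ATF7IP2* cells, though not only there. All 14 *TOP2B* cells had *PIWIL1*, at 203.5 CPM or more, and 6 of them had no *TEX15* UMI.

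**Figure D4:**
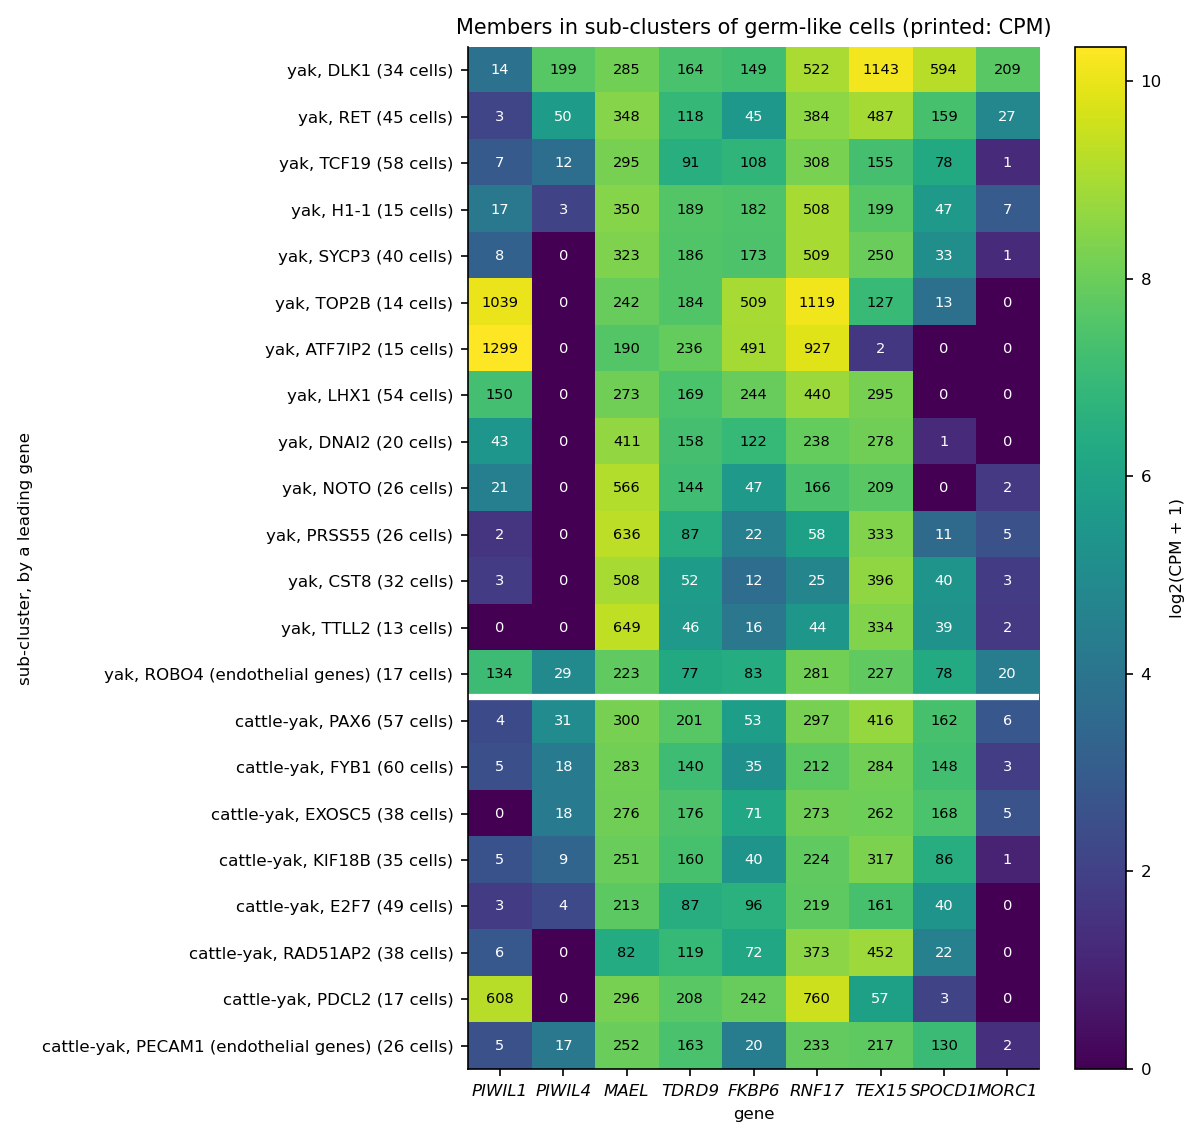
Levels of the 9 members (columns) in 14 sub-clusters of deep yak germ-like cells and 8 of 9 sub-clusters of cattle-yak germ-like cells (rows, each with its number of cells; a sub-cluster of 6 cells is left out). Colour is log2(CPM + 1) and the printed number is the CPM. *PIWIL4*, *SPOCD1* and *MORC1* are highest in the 34 *DLK1* cells, and *PIWIL1* is highest in the *TOP2B* and *ATF7IP2* cells of the yak and in the 17 *PDCL2* cells of the cattle-yak.

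Whether members shared single cells was counted after each deep cell had been thinned to 10000 UMIs, over 20 random draws, a step added after the data had been seen. Among the 203 *DMRT1* cells 46 to 62 had *PIWIL4* and 34 to 43 had *MORC1*, and both were found in a median of 26.0 cells (18 to 29), where 10.0 (7.87 to 12.1) would be shared if the genes were spread independently. *PIWIL4* and *SPOCD1* shared 39 to 52 cells (24.8 to 33.9 if independent), and *SPOCD1* and *MORC1* 30 to 37 cells (18.9 to 24.4). The 3 nuclear factors thus overlapped in cells of the *DMRT1* cluster more than an even spread would give. *PIWIL1* and *SPOCD1* shared 6 to 13 of all 409 deep yak cells (25.6 to 32.5 if independent), but within the *DMRT1* cluster they shared 5 to 11 cells (6.50 to 11.1), so that the low overlap over all cells was not seen inside that cluster. In the 220 deep cattle-yak cells *PIWIL4* and *SPOCD1* shared 17 to 27 cells (15.3 to 21.6 if independent), above independence in 20 of 20 draws. *PIWIL4* and *MORC1* shared 0 to 5 cells (0.491 to 1.58), above it in 17 draws, and *SPOCD1* and *MORC1* 2 to 11 (1.61 to 7.36), above it in 18. For *PIWIL4* and *SPOCD1* in the cattle-yak the medians were 22.0 shared cells and 18.2 if independent. Every draw thinned the same cells, so all these ranges and tallies cover the thinning only. Whether an overlap exceeded the spread between cells was not tested.

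The question of the second library is how the members stand in the germ cells of the hybrid. Deep cattle-yak germ-like cells (220) were compared with the deep yak *DMRT1* cluster (203), the yak cluster that likewise mixed spermatogonial and early meiotic markers. The sets were not matched by stage. The cattle-yak cluster also held a sub-cluster of 17 cells with 19 enriched spermatocyte markers, whereas the yak *SYCP2* and *CCNA1* clusters were left out. *MORC1* and *PIWIL4* were lower in the cattle-yak library and *PIWIL1* was higher, while the other 6 members differed by less than 2-fold. The summed spermatogonial and spermatocyte markers were 3860 and 1834 CPM in the cattle-yak cells and 3433 and 2443 CPM in the yak cells, the mitochondrial shares 20.5% and 13.6%, and the median depths 24677 and 20231 UMIs. Their part in the differences was not tested.

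*MORC1* had 17 counts in the cattle-yak cells (2.92 CPM, interval 1.70 to 4.68) and 180 in the yak cells (39.2 CPM, 33.7 to 45.4). It was 13.4 times lower in the cattle-yak (8.15 to 23.5), and 4 of 11515 genes had a lower log2 ratio. At 10000 UMIs per cell, 3 to 12 of 220 cattle-yak cells and 34 to 43 of 203 yak cells had a *MORC1* UMI over the 20 draws. Its background was 0 counts in the T/NK-like cells of either library. The 2 sets of cells were therefore apart by more than counting error in this gene.

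*PIWIL4* had 100 counts (17.2 CPM, 13.99 to 20.9) against 220 (47.9 CPM, 41.8 to 54.7), a ratio of 0.359 (0.280 to 0.457). *PIWIL1* had 187 counts (32.2 CPM) against 35 (7.62 CPM), a ratio of 4.22 (2.93 to 6.24) between sets not matched by stage. Of all genes 3.79% were at least 2-fold higher in the cattle-yak and 6.98% lower, against 1 and 2 of the 9 members. The median log2 ratio was -0.47 over the members and -0.17 over all genes.

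The remaining members lay nearer to 1. *FKBP6* had 56.1 against 109 CPM, a ratio of 0.514 (0.445 to 0.592), *RNF17* 269 against 395 CPM (ratio 0.679), *TEX15* 293 against 408 CPM (0.719), *SPOCD1* 121 against 164 CPM (0.738) and *MAEL* 267 against 313 CPM (0.852). *TDRD9* was above 1, with 162 against 128 CPM and a ratio of 1.27 (1.14 to 1.41). All 6 intervals excluded 1, which covers the counting error of 2 libraries and not the spread between animals. These ratios were not set relative to the median of all genes, a log2 ratio of -0.17, and *MAEL* lay nearest to that median.

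**Figure D5:**
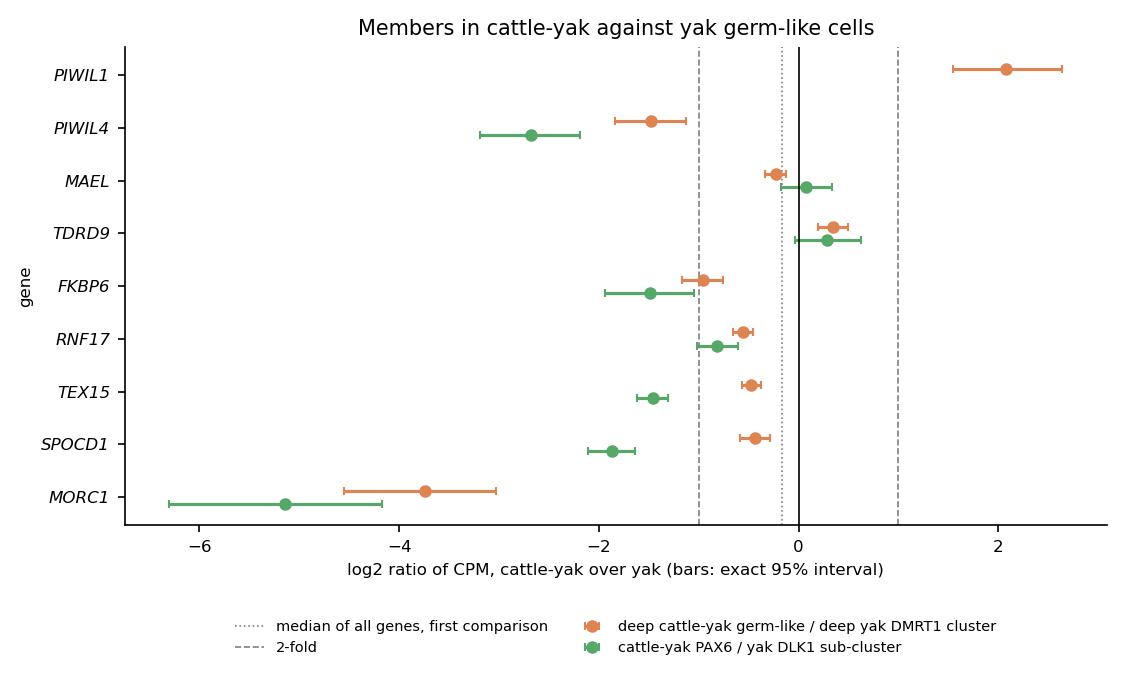
log2 ratio of CPM in cattle-yak over yak germ-like cells (horizontal axis, no CPM added) for the members with at least 20 counts, with exact 95% intervals. Orange compares the deep cells and green the *PAX6* sub-cluster of the cattle-yak with the *DLK1* sub-cluster of the yak. *MORC1* and *PIWIL4* lie left of the 2-fold line in both comparisons, and *PIWIL1* lies right of it in the first. The yak *DLK1* cells hold the highest levels of *MORC1* and *PIWIL4* among the yak sub-clusters.

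The cattle-yak germ cells also divided by the members. Among their sub-clusters, 26 cells led by endothelial genes and 6 cells left out of the plot had 88.5% and 100% of their cells among the highest doublet scores. In 57 cells led by *PAX6* and *DLK1*, which held the highest *DLK1* level of the cattle-yak sub-clusters, *PIWIL4* had 31.0 CPM, *SPOCD1* 162 CPM, *TEX15* 416 CPM and *MORC1* 5.94 CPM. *PIWIL4* was seen in 29 of these cells and *MORC1* in 8. Set against the 34 yak *DLK1* cells, *MORC1* was 35.3 times lower (18.0 to 78.8), and no gene of 7744 had a lower log2 ratio. *PIWIL4* was 6.40 times lower (4.55 to 9.15), *SPOCD1* 3.66 times, *FKBP6* 2.81 times and *TEX15* 2.75 times. In this pair 5 of 8 members were at least 2-fold lower (16.7% of all genes) and 0 higher (7.18%). *MAEL* and *TDRD9* had ratios of 1.06 (0.887 to 1.26) and 1.22 (0.976 to 1.54). The pairing rests on *DLK1* alone: summed spermatogonial markers were 4078 CPM in the cattle-yak and 2630 CPM in the yak cells. The yak *DLK1* cells were also the yak sub-cluster with the highest *MORC1*, *PIWIL4*, *SPOCD1* and *TEX15*. Lower levels of these genes in the cattle-yak cells were therefore partly set by the choice of cells, and the counts of this pair are a description.

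*PIWIL1* in the cattle-yak came from few cells. The 17 cells led by *PDCL2*, in which 19 spermatocyte markers were enriched, held 181 of its 206 counts, and *PIWIL1* reached 608 CPM there and at most 6.28 CPM in the other sub-clusters. In the same 17 cells *RNF17* had 760 CPM, *FKBP6* 242 CPM and *TEX15* 57.2 CPM, and *PIWIL4* and *MORC1* had 0 counts. This was the arrangement of the yak *SYCP2* cluster, with *PIWIL1*, *RNF17* and *FKBP6* at their highest and *TEX15* at its lowest among the sub-clusters shown. *MAEL* was not part of it: it was lowest in the yak *SYCP2* cluster, but its median per cell in these 17 cells, 279 CPM, was not the lowest of the cattle-yak sub-clusters.

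Against the 14 yak *TOP2B* cells, which had the highest *HSPA2* level of the yak sub-clusters, 2 of 6 members were 2-fold lower (7.42% of all genes) and 0 higher (4.58%). *PIWIL1* had 608 against 1039 CPM, a ratio of 0.586 (0.489 to 0.700), *FKBP6* a ratio of 0.476 and *TEX15* a ratio of 0.449. So *PIWIL1*, higher in the deep cattle-yak cells, was lower in this pair, which was chosen by *HSPA2* after the data were seen. Its direction depends on the yak set taken. The *PIWIL1* median per cell was 376 CPM in the cattle-yak *PDCL2* cells, 723 CPM in the yak *TOP2B* cells and 79.4 CPM in the 54 yak *LHX1* cells. Against the 40 yak *SYCP3* cells, the 38 cattle-yak cells led by *RAD51AP2* with *SYCP3* had 2 of 6 members lower (25.7% of all genes) and 0 higher (10.6%). *MAEL* had 81.6 against 323 CPM, a ratio of 0.253 (0.162 to 0.380), and *FKBP6* a ratio of 0.418, while *TEX15* had 452 against 250 CPM. The median depths of this pair were 8105.5 and 16715 UMIs, and 31.6% and 2.50% of the cells were among the highest doublet scores.

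The other genes of the pathway came from a list of 35, of which 27 were found by symbol. Of 24 with enough counts, 18 were at least 2-fold higher in SPG than in other kept cells (17.4% of all genes) and 0 lower, and 16 were higher in late-SPC (24.5%) and 1 lower. In early-SPC 12 were higher (21.7%) and 7 lower (46.8%), in SSC 9 higher (14.4%) and 4 lower (33.9%), and in SPT 8 higher (25.6%), which is near the share of all genes, and 1 lower. In the deep cells the Tudor genes *TDRD5* (1038 CPM) and *TDRD1* (602 CPM) were highest in the *SYCP2* cluster, as *PIWIL1* was. *TDRD6* (369 CPM) and the transcription factor *TCFL5* (853 CPM) were highest in the *CCNA1* cluster. *GTSF1*, a PIWI partner, was highest in the *TEX29* cluster (1542 CPM) as *MAEL* was. *PIWIL2*, *ASZ1*, *STK31*, *HENMT1*, *DNMT3A* and *UHRF1* were highest in the *DMRT1* cluster, *PIWIL2* at 101 CPM and the DNA methyltransferase *DNMT3A* at 123 CPM. In the *TEX29* cluster 19 of 26 pathway genes were at least 2-fold lower than in the other deep cells, where 41.6% of all genes were.

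Between the libraries the shares of the other pathway genes past 2-fold were near those of all genes (3.79% higher and 6.98% lower). Of 24 tested, 1 was at least 2-fold higher in the deep cattle-yak cells, the helicase *MOV10* (97.8 against 37.9 CPM), and 1 was lower, *BTBD18* (7.74 against 16.8 CPM). Their median log2 ratio was -0.20, against -0.17 over all genes. In the sub-cluster pairs 2 of 23 were lower between *DLK1* cells (16.7% of all genes), 1 of 16 between *HSPA2* cells (7.42%) and 6 of 21 between *SYCP3* cells (25.7%). *PIWIL2* had 119 against 101 CPM and *DNMT3A* 115 against 123 CPM.

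The 3 genes most like each member over 10 groups of germ cells (5 types, 4 deep clusters and the cattle-yak germ-like cells) were found by Pearson's r of log2(CPM + 1) among 11987 genes. The groups share libraries, and no test was made. For *PIWIL1* they were *SLC4A8* (0.99), *PSMD2* (0.96) and *MESP1* (0.95), and for *SPOCD1* *EPB41* (0.98), *MSI2* (0.98) and *PHF13* (0.96). *RNF157* and *BNC2* (both 0.98) were near *PIWIL4*, *SUPT20H* (0.97), *TTI2* (0.96) and *MESP1* near *TDRD9*, *TBCB* and *PSMC3IP* (both 0.97) near *FKBP6*, *NAA35* and *HSP90AA1* (both 0.98) near *RNF17*, and *HYI* (0.95) and *ELANE* (0.93) near *MORC1*. *TEX15* had *SHROOM3* (0.84), and the genes nearest to *MAEL* had no symbol. With Spearman's rho 5 of the 27 genes recurred, so that the lists depend on the measure.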

How the data were processed

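Cells of frozen testis tissue were captured with 10x Genomics chemistry, 1 library per animal. The authors aligned reads to the yak assembly BosGru3.0 with Cell Ranger and deposited filtered matrices of raw UMI counts per gene and barcode. The matrix headers name Cell Ranger 5.0.0, the submitters' processing notes 2.1.1. Both libraries were counted on the yak annotation. Germ cell types per barcode came from the authors.

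The 9 members and all lists were chosen with earlier results of these data known. Named genes are the 9 members, a list of 35 pathway genes, the 3 genes most similar to each member and markers. Cells with a mitochondrial share under 30% were clustered per library (scanpy 1.11.5, 2000 variable genes without members and pathway list, 30 components, 15 neighbours, Leiden resolution 1). Deep cells exceeded the library mean by 2 SD in UMIs or genes. Scrublet called 0 yak and 251 cattle-yak cells as doublets. With 0 of 11991 yak cells called, the calls were not used in either library and nothing was removed, and an alternative dropped the cells with the top 10% of scores.

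Counts were summed per group and scaled to CPM. Log2 ratios had 1 CPM added, a minimum of 20 counts and exact conditional binomial intervals of the plain ratio (scipy 1.17.1). Shares of cells were thinned to 1000 UMIs. With 1 library per group no significance test was made. A floor is 3 counts per group. In counts simulated for the comparison of deep cattle-yak and yak *DMRT1* cells, 97.0% of 100 genes raised 4-fold were called among 11512 genes. Of 11326 unchanged genes 30 were called as well. In counts simulated for the shallower late-SPC against SPG, 176 of 6147 unchanged genes were called. The simulated counts were Poisson draws without spread between cells, animals or libraries, so these shares cover counting error only. No sequence or coordinate is printed, since the reference at hand was of another assembly.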

Additional observations from a re-analysis of the deposited data

How the results depend on the processing

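All values rest on 1 library per animal, so no replicate could be left out, and neither animals nor runs were measured as a source of spread. No paired analysis was possible because each group had 1 library and the labels give no replicate numbers. In the typed cells 3 counts are 4.85 to 19.6 CPM. The number of members past 2-fold, computed for the 5 types and for cattle-yak against yak, stayed within 1.5 times under the alternatives run on it. Single values were less stable. Levels of members moved outside their counting intervals in 49 cases and stayed inside in 239. Log2 ratios of members moved outside in 155 cases and stayed inside in 533, and in 1 case a difference of at least 2-fold changed sign. Sign changes of smaller differences were not counted apart and are among the other cases. With 10 CPM added, the number of all genes past 2-fold fell to 1826 from 7158 in SSC, 1548 from 5002 in SPG, 4999 from 10148 in early-SPC, 4413 from 8900 in late-SPC, 4178 from 8819 in SPT and 228 from 1240 in cattle-yak against yak cells, and in the last a minimum of 50 counts gave 822. At Leiden resolution 2 the number of cattle-yak cells in clusters named germ-like was 66, against 326 at resolution 1, and the cause was not tested. Spearman's rho kept 5 of 27 similar genes. The *PIWIL1* log2 ratio between cattle-yak and yak turned from 1.94 to -0.77 when the sub-clusters with the highest *HSPA2* were compared, an alternative chosen after seeing the data. Other alternatives chosen then gave *MORC1* ratios from -3.36 to -3.22 with all cells of both clusters, with at least 10000 UMIs in both libraries, or without sub-clusters led by endothelial genes. None of these left out the yak *DLK1* cells, which gave most of the *MORC1* counts of the deep yak *DMRT1* cluster.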
